A study of Mus musculus with 28 samples.

Results

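Protocadherins are cell adhesion proteins of the cadherin superfamily that neurons carry on their surface. The genes described were those whose symbol starts with Pcdh and whose mean level over 24 hippocampal libraries was at least 0.5 CPM (the gene's counts per 1000000 counts of the library). Of 70 such gene IDs among the 55487 counted, 65 passed: 12 of 14 of the alpha cluster (Pcdha), 21 of 22 of the beta cluster (Pcdhb), 21 of 22 of the gamma cluster (Pcdhg) and 11 of 12 genes outside the clusters. The member just inside that limit was Pcdha8 at 0.658 CPM, and those just outside were Pcdh12 at 0.408 CPM and Pcdhb1 at 0.407 CPM. Pcdha4 at 0.21 CPM and a second gene ID of Pcdha11 (ENSMUSG00000102206) at 0.055 CPM lay further out. Pcdhga10 had 0 counts in all 24 libraries, which allows up to 0.00402 CPM over their summed depth, counting error only.

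Hippocampal polyadenylated RNA came from mice aged 9 months that had been through behaviour tests. The Ripk1 cohort held WT, 5xFAD, Ripk1D138N/D138N and Ripk1D138N/D138N 5xFAD mice, and the Zbp1 cohort held WT, 5xFAD, Zbp1-/- and Zbp1-/- 5xFAD mice, with 3 libraries per genotype and, per the labels, WT mice of common ancestry with the mutant line in each. 5xFAD mice carry mutant human transgenes, APP among them, that the Thy1 promoter drives in neurons, D138N removes the kinase activity of RIPK1, and Zbp1-/- mice lack ZBP1, a sensor of nucleic acids. A further 4 libraries held the input and the RNA immunoprecipitated (IP) with an antibody to ZBP1 from WT and from 5xFAD hippocampus, 1 library each. The labels do not say that the 3 libraries of a genotype are separate animals, so p-values measure the spread between libraries, which may be technical.

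Clustered protocadherins give each neuron a surface identity: a neuron switches on a small random subset of alternate promoters in the arrays, and the proteins bind only to matching combinations on other cells, which lets branches of one neuron recognise and avoid each other. Each alternate first exon of Pcdha and Pcdhg is spliced to constant exons shared by its cluster, whereas Pcdhb genes are single exons. The C-type genes at the ends of the alpha and gamma arrays (Pcdhac1, Pcdhac2, Pcdhgc3, Pcdhgc4 and Pcdhgc5) escape most of that random choice and are used by many neurons. Non-clustered protocadherins such as Pcdh10, Pcdh17 and Pcdh19 mark groups of neurons and act in axon growth and synapse formation.

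Promoter sequences of 9 members, all outside the clusters, were matched in RefSeq (build GRCm38.p6), each 300 bases long with 250 bases before the start of transcription and 50 after it. Windows on the chromosome that holds the clusters were not used, so no clustered gene could be among the 9. Of the 4 shown, Pcdh10 and Pcdh17 are genes whose counts fell in 5xFAD mice of the Ripk1 cohort, Pcdh19 fell there with groups that overlapped, and Pcdh8 differed from them in its pattern. They are written from 5′ to 3′ on the strand of the gene, and capitals mark 3 core promoter motifs found on either strand. These are CCAAT, the box bound by NF-Y, then GGGCGG, the box bound by Sp factors, and the box TATAAA. The windows are chr3:45378148-45378447 (plus strand) for Pcdh10, chr14:84443313-84443612 (plus strand) for Pcdh17, chrX:133688944-133689243 (minus strand) for Pcdh19 and chr14:79771263-79771562 (minus strand) for Pcdh8.
Pcdh10: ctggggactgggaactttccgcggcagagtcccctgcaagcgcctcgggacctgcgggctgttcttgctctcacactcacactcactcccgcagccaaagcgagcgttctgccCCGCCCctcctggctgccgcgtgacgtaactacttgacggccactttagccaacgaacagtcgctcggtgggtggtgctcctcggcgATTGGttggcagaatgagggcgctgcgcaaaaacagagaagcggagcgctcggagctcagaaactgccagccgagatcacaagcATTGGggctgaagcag
Pcdh17: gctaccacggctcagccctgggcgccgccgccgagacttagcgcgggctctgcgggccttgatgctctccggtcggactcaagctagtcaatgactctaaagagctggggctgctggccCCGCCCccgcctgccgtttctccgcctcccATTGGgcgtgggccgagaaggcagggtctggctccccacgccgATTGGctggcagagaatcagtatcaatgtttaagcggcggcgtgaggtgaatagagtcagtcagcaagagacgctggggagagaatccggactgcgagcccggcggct
Pcdh19: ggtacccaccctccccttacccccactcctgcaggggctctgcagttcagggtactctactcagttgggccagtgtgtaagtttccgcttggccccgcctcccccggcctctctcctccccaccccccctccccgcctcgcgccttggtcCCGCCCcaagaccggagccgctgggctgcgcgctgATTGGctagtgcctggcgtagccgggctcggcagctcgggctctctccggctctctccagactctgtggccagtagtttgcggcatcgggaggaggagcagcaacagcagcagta
Pcdh8: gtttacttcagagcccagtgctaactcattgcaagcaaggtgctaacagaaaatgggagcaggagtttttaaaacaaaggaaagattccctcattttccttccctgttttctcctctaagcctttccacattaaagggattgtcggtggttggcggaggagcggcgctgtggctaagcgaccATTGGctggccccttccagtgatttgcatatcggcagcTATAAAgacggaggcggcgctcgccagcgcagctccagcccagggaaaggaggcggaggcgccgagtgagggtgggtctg
CCAAT was present in the windows of 8 of the 9 genes, all but Pcdh7, and in 37.4% of 32851 mouse promoter windows of the same length. GGGCGG was present in 4 of the 9 against 35.7%, and TATAAA in 2 of the 9, Pcdh15 and Pcdh8, against 13.6%. These matches describe letters in a window and show neither a bound factor nor a cause of the counts.

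Library totals ran from 16.6 to 44.8 M counts (M, 1000000) in the Ripk1 cohort and from 8.36 to 34.6 M in the Zbp1 cohort, where WT 1 was the shallow library and the next lowest had 27.1 M. Thy1 counts, to which the transgene cassette can add, lay at 1467 to 2796 CPM in the 12 libraries with 5xFAD and at 510 to 645 CPM in the 12 without. In the Ripk1 cohort, Thy1 was at 2796, 2386 and 2453 CPM in 5xFAD. Ripk1D138N/D138N 5xFAD lay lower, without overlap, at 1735, 2260 and 1638 CPM. In the Zbp1 cohort it was at 2217, 2018 and 1478 CPM in 5xFAD and 1587, 1510 and 1467 CPM in Zbp1-/- 5xFAD. The part of Thy1 differences in the protocadherin values was not tested. Zbp1 was at 0 to 0.32 CPM in Zbp1-/- libraries and averaged 0.158 CPM in the WT libraries of that cohort, too low to check the deletion there, but averaged 2.44 CPM in 5xFAD and 0.325 CPM in Zbp1-/- 5xFAD. Ripk1 counts cannot check a point mutation. In the Zbp1 cohort, WT 2 and 5xFAD 2 stood apart with Malat1 at 969 and 782 CPM, and 5xFAD 2 was the lowest of 12 libraries for 21 of the 65 protocadherins. In the Ripk1 cohort, 5xFAD 1 stood apart in activity-regulated immediate early genes. Ripk1D138N/D138N 5xFAD 2 differed from the other libraries of its own genotype. Its summed Pcdha was 39.97 CPM, against 59.3 and 55.4 CPM in replicates 1 and 3. Slc17a6, a vesicular glutamate transporter of subcortical neurons, was at 8.65 CPM there, against 27.7 and 21.6 CPM. Both values lay near those of the 5xFAD libraries, 31.3 to 39.9 CPM for Pcdha and 5.35 to 9.79 CPM for Slc17a6. The thalamus and habenula markers listed, Slc17a6 among them, did not follow it, with a sum of 185 CPM against 189 and 174 CPM. Choroid plexus markers summed to 140 CPM there, against 2031 and 3937 CPM. Neocortex and subiculum markers summed to 316 CPM against 474 and 479 CPM, and oligodendrocyte markers to 9156 CPM against 7039 and 7138 CPM. The spread within a genotype was widest for the alpha cluster, where the median coefficient of variation was 25.8%, against 14.5% for Pcdhb, 16% for Pcdhg and 12.4% for the other members.

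The first comparison asked how the 5xFAD transgenes went with protocadherin transcripts in the Ripk1 cohort. Of the 65 members, 19 fell in 5xFAD and none rose, on edgeR's quasi-likelihood test with an adjusted p under 0.05 over 21376 genes. Over all genes tested, 8.02% were called lower. The members' median log2 fold change was -0.46, with 58 of 65 below 0, while the median of all genes was 0.02. Every 5xFAD library lay below every WT library for 27 members, against 12.7% of all genes, and above every WT library for 2, Pcdhb9 and Pcdhb12, against 22.5% of all genes. By class, 4 of 12 Pcdha, 2 of 21 Pcdhb, 6 of 21 Pcdhg and 7 of 11 non-clustered members fell. Median log2 fold changes were -0.76, -0.22, -0.52 and -0.56 in that order.

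**Figure D1:**
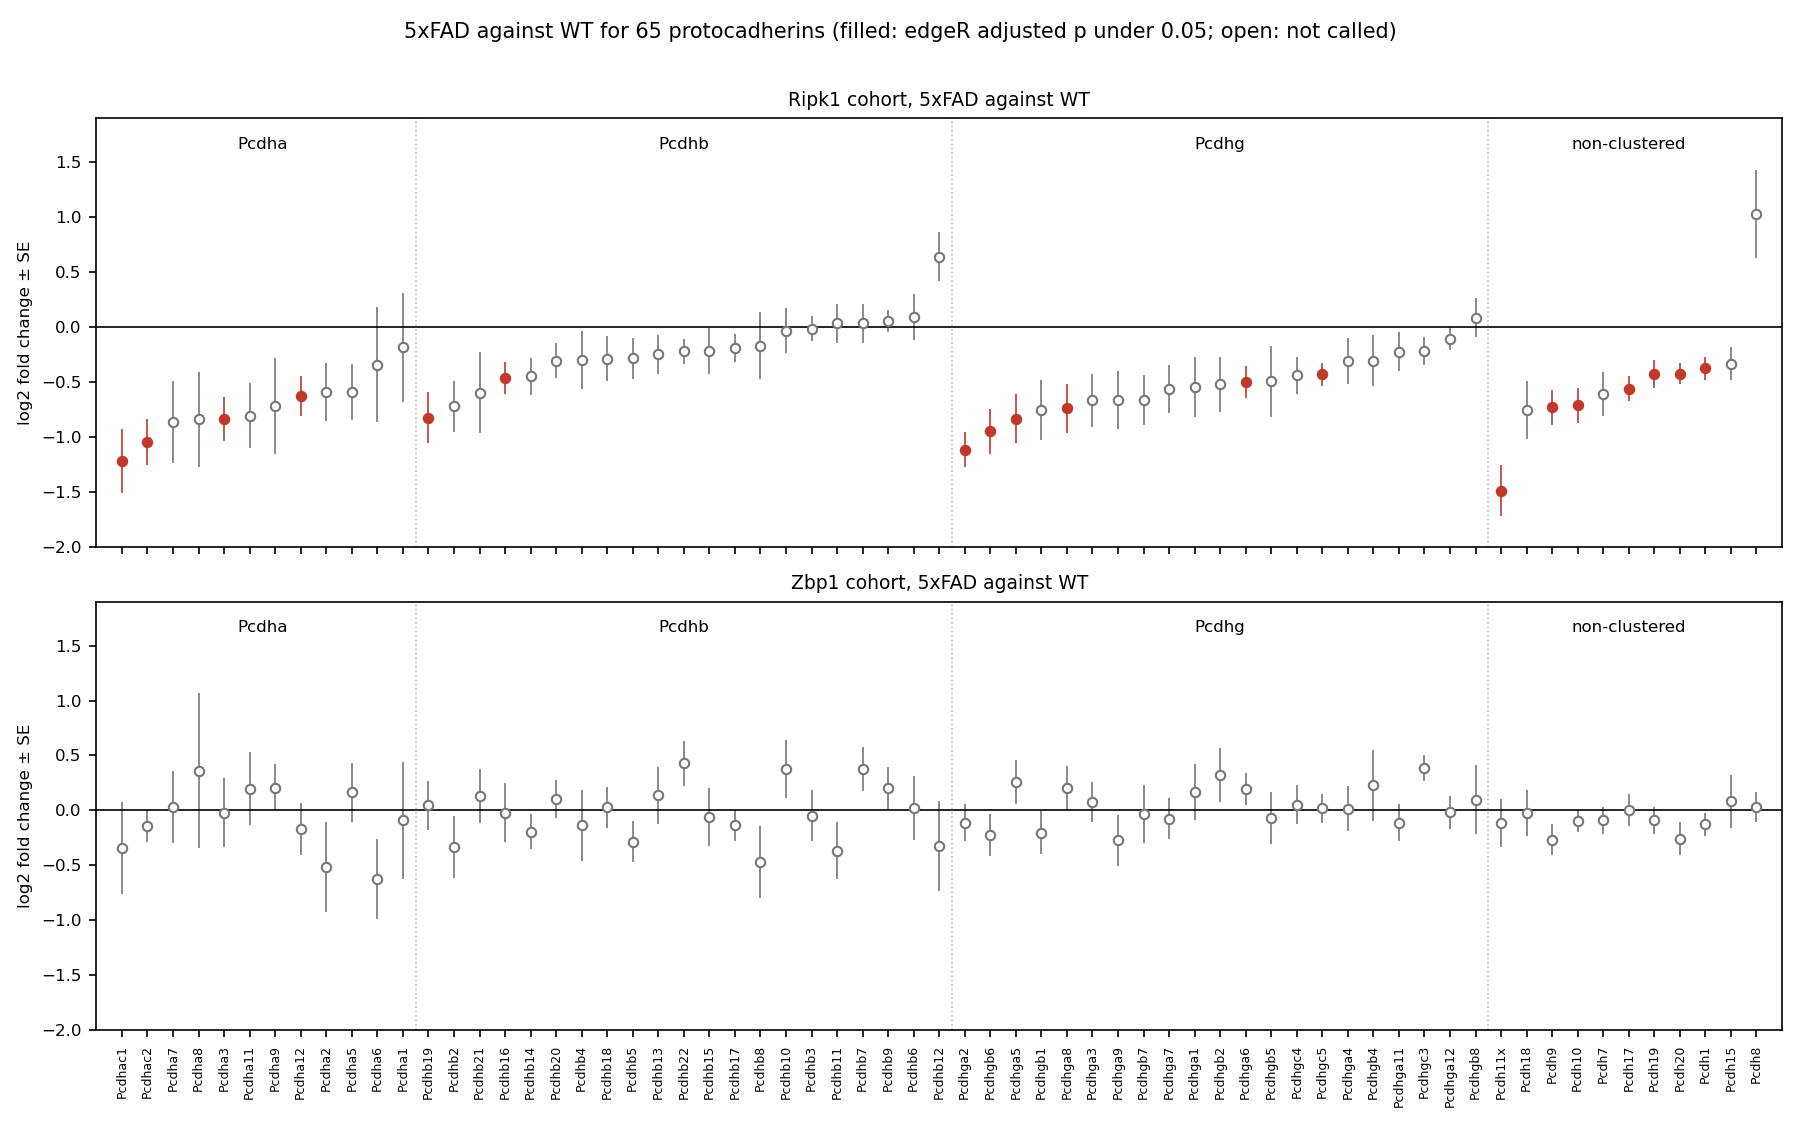
Log2 fold change of 5xFAD against WT (vertical axis) for each of the 65 members (horizontal axis, by class), with each cohort in its own panel. Bars are 1 standard error, and filled points are genes with an edgeR adjusted p under 0.05. In the Ripk1 cohort 58 of 65 points lie below 0 and 19 are filled, all below 0. In the Zbp1 cohort no point is filled.

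In the alpha cluster 4 of 12 members fell, and all 12 had a log2 fold change below 0. Pcdhac2, the C-type gene nearest the constant exons, stood at 29.4, 31.8 and 24.4 CPM in WT and at 11.9, 13.4 and 17.9 CPM in 5xFAD. Every 5xFAD library was lower than every WT library, and the log2 fold change was -1.05 ± 0.21 (SE, edgeR adjusted p = 0.00471). Pcdhac1, the other alpha C-type gene, was at 3.001, 3.48 and 2.17 CPM in WT and 0.782, 1.66 and 1.38 CPM in 5xFAD. The groups did not overlap, and the log2 fold change was -1.22 ± 0.29 (edgeR adjusted p = 0.0134). Pcdha3, an alternate isoform, was at 3.86, 4.24 and 4.07 CPM in WT and 1.92, 2.44 and 2.72 CPM in 5xFAD, again without overlap, with a log2 fold change of -0.84 ± 0.20 (edgeR adjusted p = 0.0142). Pcdha12, another alternate isoform, went from 4.91, 5.72 and 5.38 CPM to 3.55, 4.21 and 3.10 CPM, a log2 fold change of -0.63 ± 0.18 (edgeR adjusted p = 0.0327). The other 8 members had log2 fold changes between -0.86 and -0.18 and did not pass. Summed over the 12 members, the alpha cluster stood at 59.5 ± 5.94 CPM in WT and 34.2 ± 4.95 CPM in 5xFAD (mean ± SD, n = 3), with WT libraries at 61.5, 64.2 and 52.8 CPM and 5xFAD libraries at 31.3, 31.4 and 39.9 CPM. Because alpha and gamma isoforms share constant exons and how reads were assigned is not given in the sources used here, values of single isoforms are uncertain to the extent that reads on those exons were assigned to one of them.

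In the beta cluster, whose genes have no shared exons but are similar in sequence, 2 of 21 members fell, against 8.02% of all genes called lower. The count thus stood near the share over all genes. Pcdhb19 was at 12.6, 9.70 and 12.9 CPM in WT and 5.47, 5.69 and 9.44 CPM in 5xFAD, with a log2 fold change of -0.82 ± 0.23 (edgeR adjusted p = 0.0271). 5xFAD 1 and 5xFAD 2 lay far below WT and 5xFAD 3 just under the lowest WT library. Pcdhb16 was at 11.4, 11.1 and 10.4 CPM in WT and 8.66, 7.72 and 8.64 CPM in 5xFAD, a log2 fold change of -0.46 ± 0.15 (edgeR adjusted p = 0.0496). Neither Pcdhb9 nor Pcdhb17 passed: Pcdhb9 had a log2 fold change of 0.06 (edgeR adjusted p = 0.771) and Pcdhb17 of -0.19 (edgeR adjusted p = 0.354). Pcdhb12, named after its values were seen, was at 2.48, 2.72 and 1.87 CPM in WT and 4.33, 3.66 and 3.62 CPM in 5xFAD, a log2 fold change of 0.64 ± 0.22 (edgeR adjusted p = 0.0659). The 19 members that did not pass ranged from -0.72 to 0.64 on the log2 scale.

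The gamma cluster held the member with the smallest adjusted p of the family. Pcdhga2, an alternate isoform, was at 17.3, 16.7 and 18.3 CPM in WT and 8.36, 9.01 and 7.94 CPM in 5xFAD. Both groups were tight and far apart, and the log2 fold change was -1.11 ± 0.16 (edgeR adjusted p = 0.000585). Pcdhgb6 was at 12.1, 17.4 and 15.2 CPM in WT and 7.82, 8.13 and 8.32 CPM in 5xFAD, a log2 fold change of -0.95 ± 0.20 (edgeR adjusted p = 0.00743). Pcdhga5, Pcdhga6 and Pcdhga8 fell as well, with log2 fold changes of -0.83 ± 0.22, -0.50 ± 0.15 and -0.74 ± 0.22 (edgeR adjusted p = 0.022, 0.0357 and 0.0393). The 3 C-type genes differed in whether they passed. Pcdhgc5 was at 90.2, 81.4 and 85.4 CPM in WT and 71.7, 62.0 and 66.4 CPM in 5xFAD, without overlap, a log2 fold change of -0.43 ± 0.10 (edgeR adjusted p = 0.0126). Pcdhgc4, the isoform on which interneuron survival depends, was at 12.1, 11.7 and 10.1 CPM in WT and 8.54, 7.39 and 10.2 CPM in 5xFAD, a log2 fold change of -0.44 ± 0.17 (edgeR adjusted p = 0.0988). Pcdhgc3, which is also expressed by glia and acts in dendrite branching, was at 32.2, 25.5 and 26.1 CPM in WT and 28.1, 24.2 and 23.5 CPM in 5xFAD. The groups overlapped, with a log2 fold change of -0.22 ± 0.13 (edgeR adjusted p = 0.296). Whether the C-type genes differed from each other in their change was not tested. Over its 21 members the cluster summed to 304 ± 15.3 CPM in WT and 227 ± 18.8 CPM in 5xFAD (n = 3), and the 15 members that did not pass had log2 fold changes between -0.75 and 0.09.

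**Figure D2:**
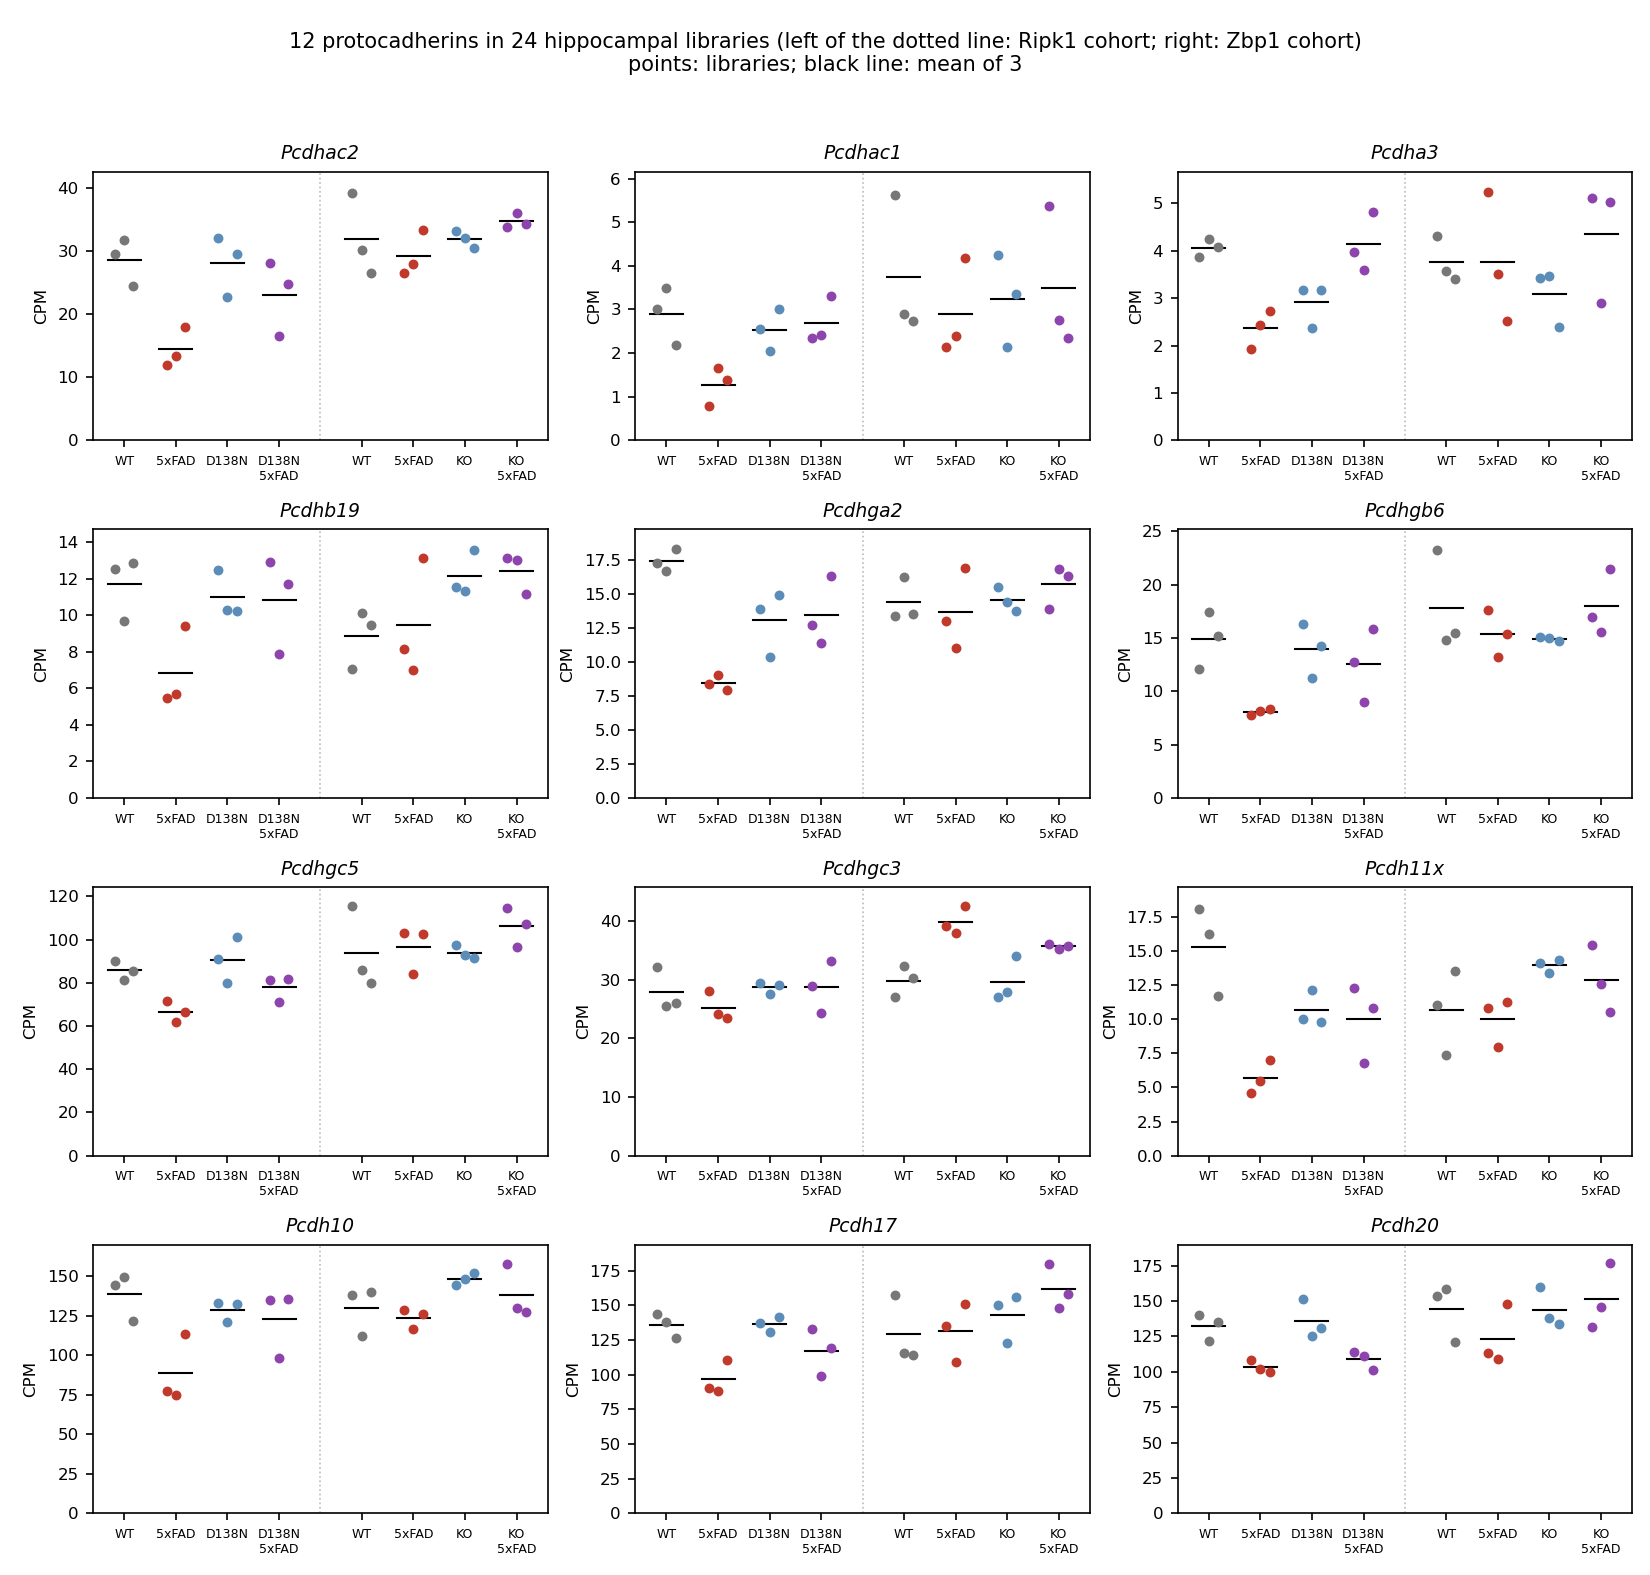
CPM in each library (points, vertical axis starting at 0) for 12 members, with the 4 genotypes of the Ripk1 cohort on the left and those of the Zbp1 cohort on the right of each panel and a black line at the mean of 3 libraries. In the Ripk1 cohort the 5xFAD points of Pcdhga2 (7.94 to 9.01 CPM) lie under all other points of the panel, while Pcdhgc3 overlaps between WT and 5xFAD there and is higher in 5xFAD in the Zbp1 cohort.

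Among the 11 non-clustered members 7 fell. Pcdh11x, an X-linked protocadherin, was at 18.1, 16.2 and 11.7 CPM in WT and 4.57, 5.50 and 6.98 CPM in 5xFAD, without overlap, and had the family's lowest log2 fold change, -1.49 ± 0.23 (edgeR adjusted p = 0.000862). Pcdh17, an adhesion molecule of corticobasal ganglia synapses, went from 144, 137.8 and 126 CPM to 90.7, 88.6 and 111 CPM, a log2 fold change of -0.56 ± 0.11 (edgeR adjusted p = 0.00463). Pcdh9, for which WT libraries were at 174, 143 and 141 CPM and 5xFAD libraries at 84.6, 91.7 and 113 CPM, had a log2 fold change of -0.73 ± 0.16 (edgeR adjusted p = 0.00768). Pcdh10, which links to the actin regulatory WAVE complex and to synapse elimination, was at 145, 150 and 122 CPM in WT and 77.5, 75.1 and 113 CPM in 5xFAD. Its log2 fold change was -0.71 ± 0.16 (edgeR adjusted p = 0.00832), and 5xFAD 3 was the 5xFAD library nearest to WT, as it was for Pcdh17 and Pcdh9. Pcdh20 was at 140, 122 and 135 CPM in WT and 109, 102 and 99.96 CPM in 5xFAD, a log2 fold change of -0.42 ± 0.09 (edgeR adjusted p = 0.00876). Pcdh1 was at 341, 351 and 334 CPM in WT and 263, 264 and 300 CPM in 5xFAD, a log2 fold change of -0.38 ± 0.10 (edgeR adjusted p = 0.023). Pcdh19, whose loss in a mosaic of cells causes an epilepsy, was at 154, 134 and 119 CPM in WT and 92.3, 99.3 and 125 CPM in 5xFAD. Here the groups overlapped, with a log2 fold change of -0.43 ± 0.13 (edgeR adjusted p = 0.0393). Of the 4 that did not pass, Pcdh7, Pcdh15 and Pcdh18, named after their values were seen, had log2 fold changes of -0.61, -0.33 and -0.75 (edgeR adjusted p = 0.0539, 0.153 and 0.0718). Pcdh7 and Pcdh18 passed without Ripk1D138N/D138N 5xFAD 2 (edgeR adjusted p = 0.00575 and 0.033), Pcdh7 also without Ripk1D138N/D138N 5xFAD 1 (0.0419), and Pcdh15 without 5xFAD 3 (edgeR adjusted p = 0.0493).

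The fourth was Pcdh8, a protocadherin that neuronal activity induces and that removes N-cadherin from synapses. It was at 47.3, 50.9 and 52.9 CPM in WT and at 214, 56.6 and 52.0 CPM in 5xFAD, and between 42.9 and 72.5 CPM in the remaining 18 libraries of both cohorts. One library, 5xFAD 1, was thus high and the other 5xFAD libraries lay close to WT. The log2 fold change was 1.03 ± 0.40 (edgeR adjusted p = 0.0994). It was 0.04 (edgeR adjusted p = 0.901) without 5xFAD 1, and 1.34 and 1.36 (edgeR adjusted p = 0.0489 and 0.0245) without 5xFAD 2 or 5xFAD 3. In 5xFAD 1, Fos was at 532 CPM, Arc at 785 CPM and Npas4 at 691 CPM, and the 12 immediate early genes listed summed to 4841 CPM, against at most 474 CPM in the rest of the cohort. Their part in the Pcdh8 value was not tested.

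**Figure D3:**
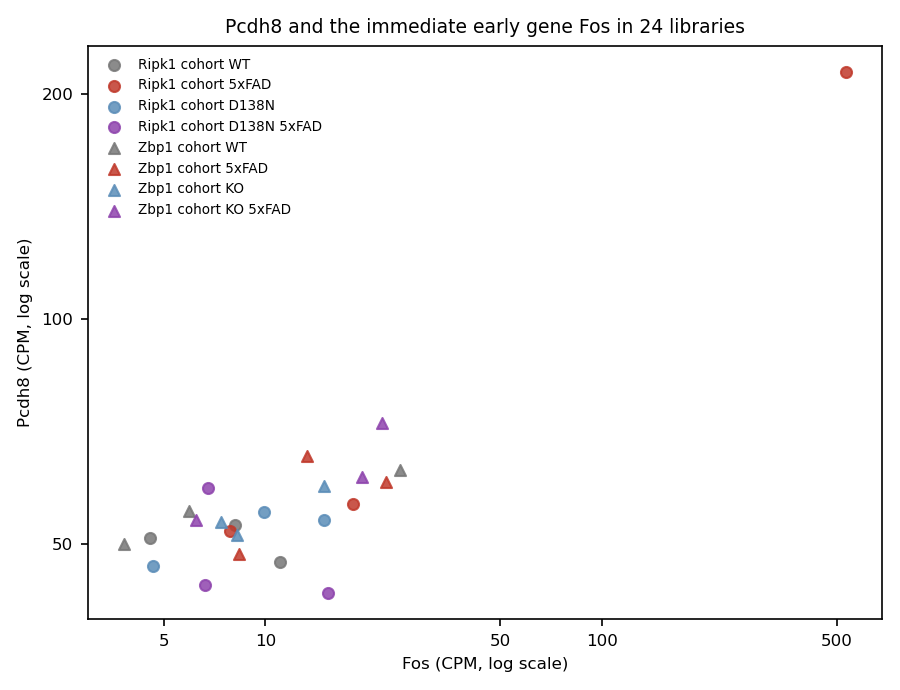
Pcdh8 (vertical axis, CPM, log scale) against the immediate early gene Fos (horizontal axis, CPM, log scale) in the 24 hippocampal libraries, circles for the Ripk1 cohort and triangles for the Zbp1 cohort, coloured by genotype. A single point, 5xFAD 1 of the Ripk1 cohort, stands apart at 532 CPM of Fos and 214 CPM of Pcdh8.

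The count of 19 depended on single libraries. With each of the 12 libraries of the cohort left out in turn it ran from 10 without WT 1 to 23 without Ripk1D138N/D138N 5xFAD 2, and was 10 lower with 1 higher (Pcdh8) without 5xFAD 2. Pcdh9, Pcdh10, Pcdh11x, Pcdh17, Pcdh20, Pcdhac2, Pcdhga2 and Pcdhgb6 were called in all 12 of these fits. Pcdhac1 lost its call without WT 2 (edgeR adjusted p = 0.0523), Pcdha3 without 5xFAD 1 or 5xFAD 2 (0.051 and 0.0509), and Pcdhgc5 without 5xFAD 2 or WT 1 (up to 0.0656). Pcdh1 and Pcdhga5 each lost theirs without 5xFAD 1, 5xFAD 2, WT 1 or WT 2 (edgeR adjusted p up to 0.0984 and 0.0899), and Pcdhb19 without 5xFAD 1, 5xFAD 2, WT 1 or WT 3 (up to 0.12). Pcdha12 lost its call without any 1 of the WT libraries, 5xFAD 1 or 5xFAD 3 (edgeR adjusted p up to 0.105), and Pcdhga6 without any 1 of the WT libraries, 5xFAD 2 or 5xFAD 3 (up to 0.155). Pcdhga8 was called in 6, Pcdh19 in 5 and Pcdhb16 in 2 of the 12 fits, with an edgeR adjusted p of up to 0.163, 0.198 and 0.174, all 3 losing their calls without WT 1, WT 2, 5xFAD 1 or 5xFAD 2. In the authors' deposited table, which lists 64 of the 65 members, 28 were lower in 5xFAD and none higher at an adjusted p under 0.05. Shares over all genes in the authors' comparisons are not given here.

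Cell type markers were measured in the same libraries. The summed level of 10 neuron markers was 8009 to 8431 CPM in WT and 7446 to 8108 CPM in 5xFAD of the Ripk1 cohort, where 2 of the 10 fell and their median log2 fold change was -0.05. In the Zbp1 cohort, in which no protocadherin passed, the same sum was 8180 to 8363 CPM in WT and 6909 to 7369 CPM in 5xFAD. The 11 interneuron markers summed on average to 987 CPM in WT and 751 CPM in 5xFAD of the Ripk1 cohort (3 of 11 fell), and to 908 and 739 CPM in the Zbp1 cohort (none passed). The 10 astrocyte markers summed to 6336 to 8068 CPM in WT and 5547 to 5889 CPM in 5xFAD of the Ripk1 cohort, without overlap, although 4 of the 10 rose and 2 fell (median log2 fold change 0.05). Their sum in the Zbp1 cohort averaged 6572 CPM in WT and 7419 CPM in 5xFAD, with overlap, and 3 of 10 rose. All 10 microglia markers rose in the Ripk1 cohort, from a mean sum of 319 CPM to 1169 CPM, as did 9 of 10 in the Zbp1 cohort, from 365 to 1401 CPM, and oligodendrocyte markers (5 of 10) rose in the Ripk1 cohort, from 5451 to 7651 CPM. Slc17a6 averaged 28.9 CPM in WT and 7.87 CPM in 5xFAD of the Ripk1 cohort, and 23.1 and 8.82 CPM in the Zbp1 cohort. The 12 thalamus and habenula markers listed, Slc17a6 among them, summed to 162 to 232 CPM in WT of the Ripk1 cohort. In 5xFAD of that cohort they summed to 176 to 188 CPM. In the Zbp1 cohort the sums were 174 to 176 CPM in WT and 142 to 167 CPM in 5xFAD. Choroid plexus markers summed to 54.5 to 5007 CPM between libraries of the Ripk1 cohort and to 54.6 to 4791 CPM in the Zbp1 cohort. None of the markers was at 0 in every library. The part of these differences in the protocadherin values was not tested, and in bulk tissue fewer cells of a type and less RNA per cell cannot be told apart.

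**Figure D4:**
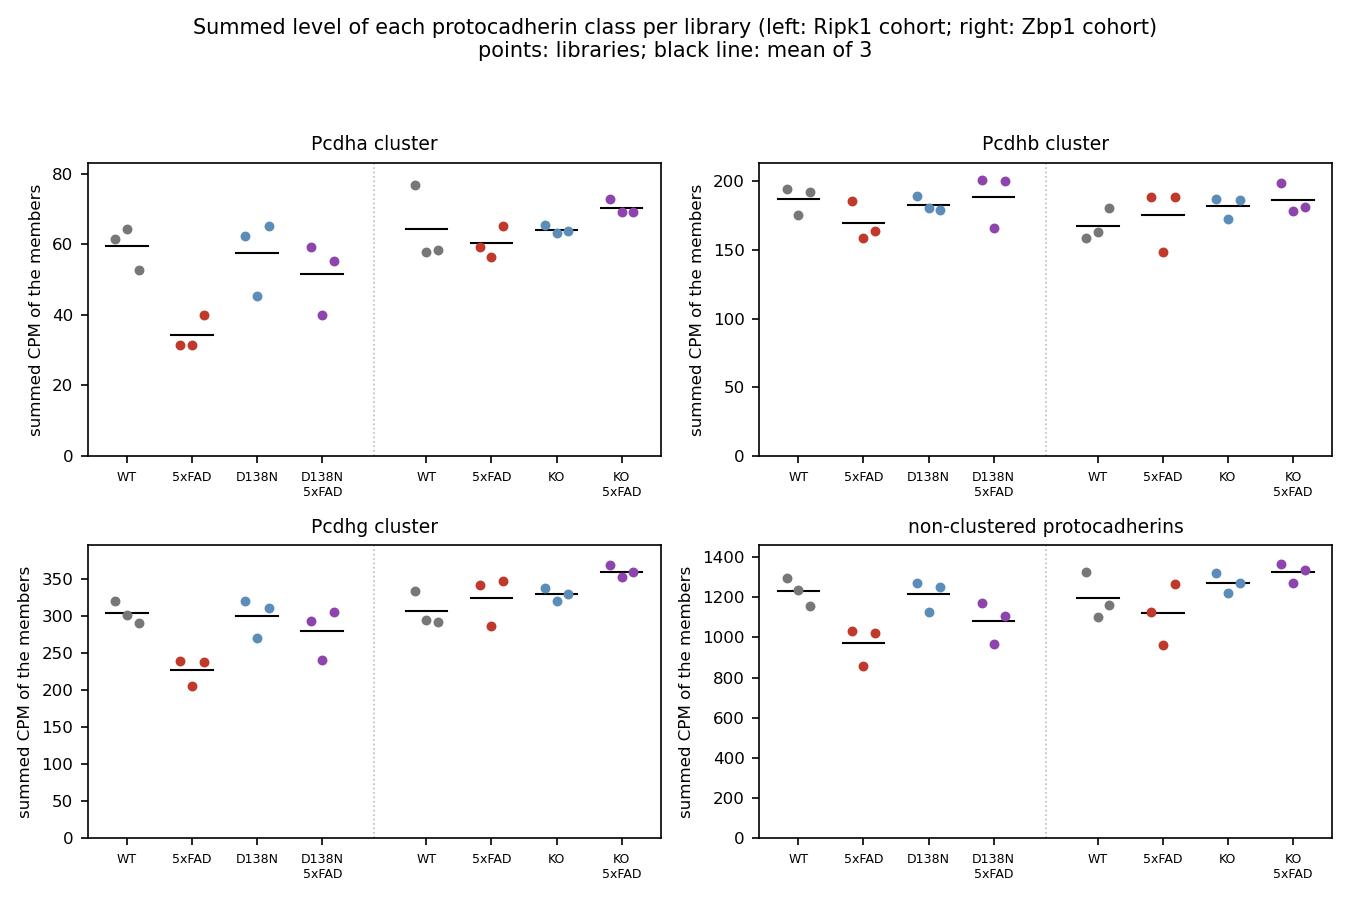
Summed CPM (vertical axis, starting at 0) of the Pcdha, Pcdhb, Pcdhg and non-clustered members in each library, by genotype and cohort, with a line at the mean of 3 libraries. The 5xFAD libraries of the Ripk1 cohort lie lowest of their cohort for Pcdha (31.3 to 39.9 CPM), while WT and 5xFAD of the Zbp1 cohort overlap in every class.

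Genes that work with protocadherins were read from lists, chosen with earlier results of these data known. Over all 21376 genes tested in 5xFAD against WT of the Ripk1 cohort, 8.02% were called lower, and the median log2 fold change was 0.02. Of 24 regulators of protocadherin promoter choice and silencing, 5 fell in 5xFAD of the Ripk1 cohort and none rose (median log2 fold change -0.13). Among them were 4 genes of cohesin, the ring complex that loops enhancers to protocadherin promoters, or of its loading and release, Pds5b (-0.55 ± 0.11, edgeR adjusted p = 0.00371), Stag2 (-0.34, edgeR adjusted p = 0.0159), Smc3 (-0.23, edgeR adjusted p = 0.0465) and Wapl. The count was 2 without 5xFAD 2, WT 1 or WT 2, and 3 without 5xFAD 1, 5xFAD 3, WT 3, Ripk1D138N/D138N 3 or Ripk1D138N/D138N 5xFAD 3. Smc3 lost its call in 10 of 12 fits that left out a library (edgeR adjusted p up to 0.188) and Stag2 without 5xFAD 2, WT 1 or WT 2 (up to 0.0763). Of 26 partners, processing enzymes and downstream signalling genes, 6 fell and 5 rose (median -0.02), while 1734 of the 21376 genes tested rose. The 11 calls were 5 without 5xFAD 2, 6 without WT 1 or WT 2 and 7 without WT 3. The WAVE complex genes Cyfip2 (-0.48 ± 0.08, edgeR adjusted p = 0.0016) and Nckap1 (-0.37, edgeR adjusted p = 0.00517) fell. Wasf2, a WAVE gene of microglia and other non-neuronal cells, rose (0.41 ± 0.08, edgeR adjusted p = 0.0044), as did the small GTPase gene Rhoa (0.32, edgeR adjusted p = 0.00584).

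Related adhesion genes that passed were all lower in 5xFAD of the Ripk1 cohort, where 8.02% of all genes were called lower. Of 20 classical and type II cadherins 6 fell and none rose (median -0.34), among them Cdh7 (-0.96 ± 0.16, edgeR adjusted p = 0.00149), Cdh8 (-0.62 ± 0.10, edgeR adjusted p = 0.00128), Cdh18 (-0.92, edgeR adjusted p = 0.00499) and Cdh6 (-1.07, edgeR adjusted p = 0.00892). Of 20 atypical cadherins 7 fell and none rose (median -0.39), led by the planar polarity cadherin Celsr2 (-0.55 ± 0.10, edgeR adjusted p = 0.00235) and by the calsyntenins Clstn3 (-0.42, edgeR adjusted p = 0.00751), Clstn1 (-0.33, edgeR adjusted p = 0.0173) and Clstn2 (-0.30, edgeR adjusted p = 0.0179), synaptic organisers that bind kinesin. This count was 3 without WT 1, WT 2 or 5xFAD 1, and 4 without WT 3 or 5xFAD 2. Clstn1 lost its call without 5xFAD 1, 5xFAD 2 or WT 2 (edgeR adjusted p up to 0.0835) and Clstn2 without 5xFAD 2, 5xFAD 3, WT 1 or WT 3 (up to 0.0842). Of 25 other neuronal recognition molecules 12 fell and none rose (median -0.45), including Dscam (-0.45 ± 0.07, edgeR adjusted p = 0.00136), the self-avoidance receptor, the teneurin Tenm3 (-1.20 ± 0.23, edgeR adjusted p = 0.00378), the contactin Cntn3 (-0.76, edgeR adjusted p = 0.00296) and Nrcam (-0.54, edgeR adjusted p = 0.00493). That count was 6 without 5xFAD 2.

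In 5xFAD against WT of the Zbp1 cohort no member passed, against 3.13% of all 21274 genes tested (edgeR). One member reached an unadjusted p under 0.05 (12% of all genes), and DESeq2 called none. The median log2 fold change of the 65 was -0.02, every 5xFAD library lay below every WT library for none of them (4.42% of all genes), and above for 1 (9.02% of all genes). That member was Pcdhgc3, with WT libraries at 27.0, 32.3 and 30.2 CPM and 5xFAD libraries at 39.1, 38.0 and 42.6 CPM. Its log2 fold change was 0.39 ± 0.12 (edgeR adjusted p = 0.123), and it was 0.50 (edgeR adjusted p = 0.0364) with WT 2 and 5xFAD 2, the libraries of low Malat1, left out. The authors' deposited table gives it a log2 fold change of 0.39 with an adjusted p of 0.0308. Pcdhac2 was at 39.1, 30.1 and 26.5 CPM in WT and 26.4, 27.95 and 33.2 CPM in 5xFAD, and Pcdhga2 at 13.4, 16.3 and 13.5 CPM in WT and 13.0, 10.99 and 16.9 CPM in 5xFAD, so both overlapped. Pcdh11x likewise overlapped, at 11.002, 7.41 and 13.6 CPM in WT and 10.8, 7.95 and 11.3 CPM in 5xFAD. The largest log2 differences of the remaining classes were -0.63 for Pcdha6 (edgeR adjusted p = 0.57), -0.47 for Pcdhb8 (edgeR adjusted p = 0.67) and -0.27 for Pcdh9 (edgeR adjusted p = 0.50). Summed levels of WT and 5xFAD averaged 64.4 and 60.3 CPM for Pcdha, 167 and 175 CPM for Pcdhb, 307 and 325 CPM for Pcdhg, and 1195 and 1119 CPM for the non-clustered members. Of the 5 lists, the regulators, the classical cadherins and the recognition molecules had no gene that passed. Wasf2 rose among the partners (0.81 ± 0.11, edgeR adjusted p = 0.000659) and Clstn3 fell among the atypical cadherins (-0.32 ± 0.08, edgeR adjusted p = 0.0368), the latter losing its call in 10 of the 12 fits without 1 library (edgeR adjusted p up to 0.184), all but those without WT 2 or 5xFAD 2.

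Whether the 5xFAD difference itself differed between the cohorts was tested in one fit of the 24 libraries. No member passed after adjustment over 22565 genes, nor did any other gene (0% called). At an unadjusted p under 0.05 there were 22 of 65 members, against 9.14% of all genes, and 21 of them had the more negative value in the Ripk1 cohort, against 6.32% of all genes. The median difference in log2 fold change was -0.46. It was -1.01 ± 0.24 for Pcdhga2 and -1.38 ± 0.33 for Pcdh11x (edgeR adjusted p = 0.264 for both), -0.92 for Pcdhac2 and -0.61 ± 0.17 for Pcdhgc3 (edgeR adjusted p = 0.354 for both). Without 5xFAD 2 of the Zbp1 cohort, Pcdhga2 and Pcdh11x passed (-1.13 and -1.51, edgeR adjusted p = 0.0286 and 0.0304), and DESeq2 called the same pair (adjusted p = 0.0312 and 0.0319). Over all genes, DESeq2 called 8 higher and 23 lower in this test. The test reuses the WT and 5xFAD libraries of both comparisons above, so low values in 5xFAD of the Ripk1 cohort enter it again. Each cohort was sequenced with its own WT and 5xFAD libraries, so line and anything else that differs between the cohorts cannot be told apart.

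The Ripk1D138N/D138N libraries answer 2 questions, what the mutation does without and with the transgenes. Against WT, no member passed (edgeR, 0% of all genes called), 3 had an unadjusted p under 0.05 (2.4% of all genes), and DESeq2 called none. Those 3 were Pcdhga2 (log2 fold change -0.40), Pcdh11x (-0.52) and Pcdha3 (-0.47), all lower in Ripk1D138N/D138N, and the members' median was -0.05. Pcdhga2 was at 13.9, 10.4 and 14.9 CPM and Pcdh11x at 10.04, 12.2 and 9.80 CPM in Ripk1D138N/D138N.

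Ripk1D138N/D138N 5xFAD against 5xFAD gave no call among the members (edgeR) against 0.365% of all genes, while 20 members were higher and 1, Pcdh8, lower at an unadjusted p under 0.05. Of all genes, 12.3% reached that p, and 6.51% reached it as higher. The median log2 fold change was 0.32 with 59 of 65 above 0. Summed astrocyte markers averaged 5750 CPM in 5xFAD and 6969 CPM in Ripk1D138N/D138N 5xFAD (7330, 5845 and 7731 CPM in its libraries), with none of the 10 called, and their part in the protocadherin values was not tested. Groups did not overlap for 10 members that were higher (5.42% of all genes) and 1 that was lower (9.96%). This comparison shares its 5xFAD libraries with that of 5xFAD against WT, so low values in those 3 libraries enter both with opposite sign. Pcdhga2 was at 12.7, 11.4 and 16.3 CPM in Ripk1D138N/D138N 5xFAD, above the 7.94 to 9.01 CPM of 5xFAD, a log2 fold change of 0.70 ± 0.16 (edgeR adjusted p = 0.134). Pcdha3 was at 3.98, 3.60 and 4.82 CPM, also above all 5xFAD libraries (0.83 ± 0.20, edgeR adjusted p = 0.17). Pcdhac1 was at 2.33, 2.42 and 3.30 CPM (1.08 ± 0.29, edgeR adjusted p = 0.224), and Pcdhac2 at 28.04, 16.4 and 24.7 CPM, where replicate 2 lay among the 5xFAD libraries (0.71, edgeR adjusted p = 0.262). Pcdh11x at 12.3, 6.77 and 10.8 CPM showed the same low replicate 2 (0.83 ± 0.23, edgeR adjusted p = 0.224).

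That library, Ripk1D138N/D138N 5xFAD 2, decided the count: without it 10 members rose, among them Pcdh9 (0.70, edgeR adjusted p = 0.0187), Pcdh11x (1.03, 0.0243), Pcdhga2 (0.80, 0.0294), Pcdhac2 (0.89, 0.0324), Pcdhgb6 (0.84, 0.0376), Pcdhb16 (0.62, 0.0444) and Pcdha3 (0.90, 0.048). How many of all genes passed in that fit is not given here, so the 10 cannot be set against a share of all genes. Without Ripk1D138N/D138N 2, 1 member passed, Pcdhga2 (edgeR adjusted p = 0.0468). DESeq2 on all libraries called 6, namely Pcdh9, Pcdh11x, Pcdha3, Pcdhac1, Pcdhac2 and Pcdhga2, with adjusted p from 0.00458 for Pcdhga2 to 0.0462 for Pcdh9. Over all 55487 gene IDs, DESeq2 called 130 higher and 148 lower, against 5 and 73 of 21376 by edgeR. Lower in 5xFAD than in Ripk1D138N/D138N 5xFAD, in the authors' deposited table, were 3 members, Pcdh11x (log2 fold change -0.84, adjusted p 0.0272), Pcdha3 (-0.83, 0.0371) and Pcdhac1 (-1.08, 0.0408).

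Ripk1D138N/D138N 5xFAD against Ripk1D138N/D138N, the transgene comparison in mice with the mutation, had 1 call among the members, against 0.257% of all genes called lower. Pcdh20 went from 152, 125 and 131 CPM to 114, 111 and 102 CPM, without overlap, a log2 fold change of -0.37 ± 0.09 (edgeR adjusted p = 0.0478). It kept its call in 2 of 12 fits that left out a library, those without Ripk1D138N/D138N 2 or WT 2, and its edgeR adjusted p rose to 0.215 without Ripk1D138N/D138N 1. Without Ripk1D138N/D138N 2, Pcdh1 and Pcdhgc5 fell as well (-0.36 and -0.37, edgeR adjusted p = 0.0224 and 0.0487). The interaction, which tests whether the transgene difference depends on the mutation, called no member (edgeR, 0.0281% of all genes), with 14 at an unadjusted p under 0.05 (7.47% of all genes), 13 of them with the higher transgene difference in the mutant (4% of all genes). It was 1.10 ± 0.23 for Pcdhga2 (edgeR adjusted p = 0.24), 1.29 ± 0.29 for Pcdha3 (0.287) and 1.35 ± 0.32 for Pcdh11x (0.356), and DESeq2 called these 3 (adjusted p = 0.00259, 0.0207 and 0.0106). Over all genes, DESeq2 called 17 higher and 57 lower in the interaction. The interaction shares its WT and 5xFAD libraries with 5xFAD against WT, so low values in 5xFAD enter both.

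Zbp1-/- against WT gave no call among the members (edgeR, 0% of all genes), with 4 at an unadjusted p under 0.05 (3.66% of all genes), all higher in Zbp1-/-, and none called by DESeq2. Pcdhga3, an alternate gamma isoform named after its values were seen, was at 12.8, 12.7 and 12.4 CPM in WT and 19.7, 24.5 and 15.0 CPM in Zbp1-/- (log2 fold change 0.64 ± 0.18, edgeR adjusted p = 0.942). With the transgenes it was at 15.6, 11.2 and 14.02 CPM in 5xFAD and 23.1, 19.3 and 23.2 CPM in Zbp1-/- 5xFAD, a log2 fold change of 0.69 ± 0.18 (edgeR adjusted p = 0.286). In neither pair did the groups overlap. For Zbp1-/- 5xFAD against 5xFAD as a whole no member passed (edgeR, 0% of all genes), 6 had an unadjusted p under 0.05 (8.81% of all genes), all higher in Zbp1-/- 5xFAD, and DESeq2 called 1, Pcdhga3 (adjusted p = 0.0308). Over all genes, DESeq2 called 2 higher and 152 lower here. Groups did not overlap for 7 members that were higher (6.04% of all genes) and 1 that was lower (8.3%). The authors' deposited table gives Pcdhga3 a log2 fold change of -0.69 for 5xFAD over Zbp1-/- 5xFAD, adjusted p 0.0112, its only call among the members.

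Zbp1-/- 5xFAD against Zbp1-/- gave no call (edgeR, 1.23% of all genes), none at an unadjusted p under 0.05 (7.59% of all genes) and none by DESeq2. Pcdhgc3 was at 27.1, 27.9 and 34.1 CPM in Zbp1-/- and 36.2, 35.2 and 35.7 CPM in Zbp1-/- 5xFAD, a log2 fold change of 0.24 ± 0.12. In the interaction test, too, no member passed (edgeR, 0% of all genes), none had an unadjusted p under 0.05 (2.26% of all genes), and DESeq2 called none.

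In the immunoprecipitation libraries, counts on protocadherin symbols were a small share of both input and IP. WT input counts ran from 10 to 158 over members whose hippocampal means ran from 0.658 to 345 CPM. Pcdh1, at 345 CPM, had 36 of these counts, and Pcdh15, at 22.9 CPM, had 158. Input counts thus did not follow the hippocampal levels, and the reason was not tested. The members held 1770 of 8.91 M counts in WT input (0.0199%, 95% exact interval 0.0189 to 0.0208) and 1123 of 5.74 M in WT IP (0.0196%, 0.0184 to 0.0207). They held 2119 of 9.44 M in 5xFAD input (0.0224%, 0.0215 to 0.0234) and 1258 of 6.81 M in 5xFAD IP (0.0185%, 0.0175 to 0.0195). The ratio of IP to input shares was 0.985 (0.913 to 1.06) in WT and 0.823 (0.767 to 0.883) in 5xFAD. Taken gene by gene, the median ratio over members was 1.03 in WT and 0.832 in 5xFAD. Over all genes with at least 10 input counts and 1 IP count it was 0.862 and 0.734. By class, in WT and 5xFAD, the ratio of shares was 1.04 (0.833 to 1.29) and 0.860 (0.699 to 1.055) for summed Pcdha, and 1.25 (1.09 to 1.44) and 0.912 (0.7997 to 1.04) for summed Pcdhb. It was 0.887 (0.756 to 1.04) and 0.723 (0.619 to 0.842) for summed Pcdhg, and 0.853 (0.750 to 0.969) and 0.809 (0.720 to 0.909) for the non-clustered members. Most counts of these libraries lay on repeat families, and of the counts on gene symbols alone the members held 0.242% and 0.218% in WT input and IP, and 0.261% and 0.242% in 5xFAD input and IP. The interval of single members lay above 1 for Pcdhb4, Pcdhb7 and Pcdhb21 in WT, against 0.91% of all genes with at least 10 input counts and 1 IP count, and for Pcdhb7 in 5xFAD (2.23, 1.20 to 4.27), against 0.438%. It lay below 1 for Pcdh1, Pcdh10 and Pcdhgb5 in WT, against 5.69% of genes, and for Pcdh17, Pcdha12, Pcdhb15, Pcdhga11 and Pcdhgc3 in 5xFAD, against 17.2%. With 1 library per group there is no replicate check and no test, and the intervals cover counting error only.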

How the data were processed

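Hippocampal RNA was sequenced in 24 libraries of 2 cohorts and ZBP1 immunoprecipitation in 4. The values used are counts per Ensembl gene ID, deposited by the authors as 1 table per cohort, and counts per gene symbol or repeat family for the immunoprecipitation. HISAT2, DESeq2 1.42.1 and edgeR 4.0.16 are named in the submitters' processing notes with builds mm10 (GRCm38) and mm39 (GRCm39). Neither the counting options nor strand use is given in the sources used here. The authors' deposited tables of comparisons hold log2 fold changes and p-values with adjusted p-values, per the file headers. They name one alpha gene (ENSMUSG00000007440) Pcdha10 where the reference names used here give Pcdha11, and Pcdhgb8 was not found in them. The heat-map scores were not used.

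Groups came from the sample titles. Symbols came from a table of gene names. In R 4.3.3, edgeR 4.0.16 (limma 3.58.1) fitted each cohort's 12 libraries together, with TMM, filterByExpr by genotype and a quasi-likelihood fit of 1 mean per genotype, and a gene was called at a Benjamini-Hochberg adjusted p under 0.05 over all genes tested. All 65 members passed the filter on low counts in both cohorts. The SE is the absolute log2 fold change divided by the square root of F. Printed CPM are counts per 1000000 of the library total, without TMM. Chi-square over degrees of freedom between libraries of one genotype in a cohort was 7.28 to 78.1, so no library was a repeat of another in its group. Libraries of different genotypes or cohorts were not compared in this way. The labels give no batch. Alternatives were DESeq2 1.42.0, relative log expression scaling, no filter on low counts, a replicate block, the compared genotypes alone and each library left out. The scripts were tested on simulated data.

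Members and lists were chosen with earlier results of these data known. The genes named were the members called in any comparison, the 2 of highest mean CPM and the 1 of largest 5xFAD difference per class and cohort, the C-type genes with Pcdh8, Pcdh10, Pcdh11x and Pcdh19, those beside the CPM limit, and up to 4 called genes of smallest p per list. One gene that the rule names is not reported here. Gene lengths were not used, so levels are not ordered between genes.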

Additional observations from a re-analysis of the deposited data

How the results depend on the processing

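In no setting did a called value reverse. Of the single-gene results, 1242 alternative values kept their side of the threshold, 97 lost it and 47 gained it. Members called in 5xFAD against WT of the Ripk1 cohort numbered 29 by DESeq2 against 19, and 10 to 23 with 1 library left out. Over all genes, DESeq2 called 2034 higher and 2190 lower there, against 1734 and 1715 by edgeR. Counts over all genes in the fits without 1 library are not given here. For Ripk1D138N/D138N 5xFAD against 5xFAD the members called numbered 6 by DESeq2, 7 without the low-count filter and 0 to 10 with 1 library left out, against 0. Calls over all genes also changed there, from 5 higher and 73 lower to 130 and 148 by DESeq2 and 195 and 192 without the filter. For Ripk1D138N/D138N 5xFAD against Ripk1D138N/D138N it was 0 with those genotypes alone and 0 to 3 with 1 library left out, against 1. The Ripk1 interaction gave 3 by DESeq2 and 3 without the filter. Over all genes it gave 17 higher and 57 lower by DESeq2, and 53 and 92 without the filter. The difference between cohorts gave 2 by DESeq2, 5 without the filter and 0 to 2 with 1 library left out. Over all genes that difference gave 8 higher and 23 lower by DESeq2, and 68 and 120 without the filter. In the Zbp1 cohort, 5xFAD against WT gave 1 with both low-Malat1 libraries left out, a setting chosen after seeing the data, and Zbp1-/- 5xFAD against 5xFAD gave 1 by DESeq2 and 1 without the filter. Over all genes the former setting called 864 higher and 257 lower. For the latter comparison it was 2 and 152 by DESeq2, and 61 and 437 without the filter. The replicate numbers were not used as pairs in the main fit. Across genotypes, deviations of libraries with the same number correlated at -0.218 to 0.244 in the Ripk1 cohort and -0.110 to 0.401 in the Zbp1 cohort. For libraries with different numbers the ranges were -0.300 to 0.213 and -0.338 to 0.211. These overlapping ranges do not settle whether the numbers pair the libraries. With the replicate block 26 members were called in 5xFAD against WT of the Ripk1 cohort, beside 1745 genes higher and 1852 lower over all genes.

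Among the lists in 5xFAD against WT of the Ripk1 cohort, regulators called numbered 3 without the filter and 2 to 5 with 1 library left out, classical cadherins 11 by DESeq2, partners 5 to 11, atypical cadherins 3 to 7 and recognition molecules 6 to 16 with 1 library left out. In the Zbp1 cohort, with both low-Malat1 libraries left out, 1 regulator, 2 partners, 1 classical and 3 atypical cadherins were called. DESeq2 called 2 partners and 1 classical cadherin there, and no atypical cadherin was called without the filter or with those genotypes alone. With 1 library left out, partners ran from 1 to 3, classical cadherins from 0 to 1, atypical cadherins from 0 to 3 and recognition molecules from 0 to 1. Over counts on gene symbols alone, the members' share was 0.261% and 0.242% in 5xFAD input and IP and 0.242% and 0.218% in WT input and IP. With all 70 Pcdh symbols it was 0.0240% in 5xFAD input, 0.0210% in WT input and 0.0208% in WT IP. The causes were not tested. Members near 1 CPM, such as Pcdha8, rest on few counts, and the shallow WT 1 of the Zbp1 cohort (8.36 M counts) limits them most.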

Other observations

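The share of single C-type isoforms within the alpha and gamma clusters is given here as values, with no test run. Pcdhac2 held 47.8 ± 1.64% of the counts on alpha members in WT of the Ripk1 cohort (46.2% to 49.4%), 41.7 ± 3.57% in 5xFAD (37.8% to 44.8%), 48.8 ± 3.24% in Ripk1D138N/D138N and 44.4 ± 3.09% in Ripk1D138N/D138N 5xFAD (SD, n = 3). WT and 5xFAD did not overlap there. It held, in the Zbp1 cohort, 49.4 ± 3.52% in WT, 48.3 ± 3.34% in 5xFAD, 49.5 ± 1.72% in Zbp1-/- and 49.2 ± 2.82% in Zbp1-/- 5xFAD, and WT and 5xFAD overlapped. Pcdhgc3 held 9.18 ± 0.80% of the counts on gamma members in WT of the Ripk1 cohort (8.49% to 10.1%), 11.1 ± 1.09% in 5xFAD (9.88% to 11.8%), 9.61 ± 0.53% in Ripk1D138N/D138N and 10.3 ± 0.54% in Ripk1D138N/D138N 5xFAD, and WT and 5xFAD overlapped. Its share in the Zbp1 cohort was 9.81 ± 1.51% in WT (8.09% to 10.9%), 12.3 ± 0.91% in 5xFAD (11.5% to 13.3%), 9.02 ± 1.19% in Zbp1-/- and 9.92 ± 0.095% in Zbp1-/- 5xFAD, and WT and 5xFAD did not overlap. The share of one isoform depends on how reads on shared exons were counted.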
